A study of Mus musculus with 2 samples.

Results

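Expression of the genes that make thromboxane, prostaglandins and leukotrienes was examined in the liver of apoE-KO mice given dietary Chol. The group holds 10 genes, Pla2g4a, Ptgs1, Ptgs2, Tbxas1, Ptgis, Ptges, Alox5, Alox5ap, Lta4h and Ltc4s. They were looked up by name, and all 10 were found among the 27962 gene names of the array, on 16 of its 41174 probes. The mice were male, of strain C57BL/6 and without a working Apoe gene, and have raised plasma Chol even on normal chow. From 10 weeks of age they received normal chow or, as the high-Chol diet, this chow with 1.25% Chol for 1 week. RNA of the whole liver was read on 6 one-colour Agilent arrays, 3 independent experiments per diet. The sources used here do not give the number of mice behind an array, so the spread is that between experiments.

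All 3 normal chow arrays and 1 high-Chol array lay on slide 1, and the other two high-Chol arrays lay on slide 2, which was read with another software version. The 75th percentile of the signal, to which every value below is set on the log2 scale, was 271 to 374 intensity units on slide 1 and 762 and 799 on slide 2. The share of spots well above background was 50.5% to 67.3%. Both diets share the Apoe disruption, and the Apoe probe read 1.66 to 3.81 on normal chow and 3.18 to 3.56 on the high-Chol diet, well above background on all 6 arrays. Whether this probe lies in the disrupted part is not given in the sources used here, so it does not check the knockout. Of 12 hepatocyte markers, 10 were matched and all 10 were well above background on every array.

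These genes serve a short chain of reactions. Cytosolic phospholipase A2, from Pla2g4a, frees arachidonic acid from membrane phospholipids. The cyclooxygenases of Ptgs1 and Ptgs2 turn it into prostaglandin H2, from which thromboxane synthase (Tbxas1) makes thromboxane A2, prostacyclin synthase (Ptgis) makes prostacyclin and the synthase of Ptges makes prostaglandin E2. In the other branch 5-lipoxygenase (Alox5), helped by its membrane partner FLAP (Alox5ap), makes leukotriene A4, which leukotriene A4 hydrolase (Lta4h) and leukotriene C4 synthase (Ltc4s) convert further. In the liver much of this chemistry is known from Kupffer cells and other non-parenchymal cells, and thromboxane synthase is also a platelet and macrophage enzyme.

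Each array value below is the binding of labelled RNA to a probe of 60 bases. Shown first are 3 such probes from coding sequence, since their genes did not overlap between the diets. They are printed 5′ to 3′ as the array design gives them, with no part marked by capitals. The Tbxas1 probe lies at chr6:39015222-39015281 on the plus strand, the Ptgis probe at chr2:166947459-166947518 on the minus strand, and the Pla2g4a probe spans an intron within chr1:149755785-149766269 on the minus strand, all in build mm7.
Tbxas1: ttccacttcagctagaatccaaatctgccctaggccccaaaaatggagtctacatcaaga
Ptgis: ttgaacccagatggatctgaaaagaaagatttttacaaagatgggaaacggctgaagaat
Pla2g4a: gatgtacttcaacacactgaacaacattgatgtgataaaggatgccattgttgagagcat

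Promoters were read from RefSeq (assembly GRCm38.p6), which held 9 promoters for 8 of the 10 genes. The 250 bases before each start were searched on both strands for GAGGAA, letters that myeloid ETS factors such as PU.1 are known to bind, for TATAAA, the core of a TATA box, and for TTGCGCAA, the palindrome of C/EBP factors. GAGGAA was found in 6 of the 9 promoters (6 of the 8 genes) and in 23.3% of all 32851 promoters. TATAAA was found in 2 of the 9 promoters and in 12.4% of all promoters. TTGCGCAA was found in 1 of the 9, that of Ptgs2, where it ended 62 bases before the start, and in 0.164% of all promoters. These matches are descriptions of letters and not of binding. The 150 bases before the start are shown for Tbxas1, the gene with the lowest adjusted p among the 10, at chr6:38918836-38918985 on the plus strand, and for Ptgs1, whose GAGGAA lay 19 bases before the start, at chr2:36230276-36230425 on the plus strand. Capitals mark GAGGAA or its complement TTCCTC and TATAAA or its complement TTTATA, and in Tbxas1 the matches adjoin, with TATAAA and TTTATA overlapping and ending 6 and 8 bases before the start and TTCCTC ending 14 bases before it.
Tbxas1: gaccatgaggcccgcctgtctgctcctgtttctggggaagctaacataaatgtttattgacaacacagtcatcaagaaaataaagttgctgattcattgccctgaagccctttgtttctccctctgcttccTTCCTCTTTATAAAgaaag
Ptgs1: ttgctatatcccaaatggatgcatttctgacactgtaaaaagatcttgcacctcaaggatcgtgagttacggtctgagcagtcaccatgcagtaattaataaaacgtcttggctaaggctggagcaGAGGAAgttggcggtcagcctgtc

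On the high-Chol diet Tbxas1 and Alox5ap rose, Pla2g4a, Ptgis and Ptgs1 were higher on every high-Chol array than on every normal chow array without passing the test, and Ltc4s, Lta4h and Alox5 overlapped between the diets. Of the 10 genes, 8 were bright enough to be tested, meaning that their brightest probe stood well above background in every experiment of 1 diet or of both. With limma and Benjamini-Hochberg adjustment over all 16730 genes tested, 2 of the 8 were called higher at an adjusted p under 0.05, where 2.69% of all genes were called higher, and 0 were called lower, where 0.227% of all genes were. At an unadjusted p under 0.05, 5 of the 8 were higher, against 12.3% of all genes, and 0 were lower, against 8.83%. By size, 4 of the 8 were more than 1.5-fold higher, against 15.4% of all genes, and 5 of the 8 had no overlap between the diets in the higher direction, against 11.9% of the 16438 genes measured on all 6 arrays. The median log2 difference of the 8 was 0.67 and that of all genes tested was -0.02. Ptgis passed the filter through the high-Chol diet alone, so its part in these counts is set by the filter. Of the 7 that were well above background throughout, 2 were called higher, 3 were more than 1.5-fold higher and 4 had no overlap, where 2.06%, 9.58% and 9.67% of all genes of that kind did so. Their median was 0.47, against -0.07 for the 14335 genes of that kind. The exact two-sided permutation test of 3 against 3 arrays cannot go below 0.1, which it gave for each of the 5 genes without overlap. With slide as a block, the contrast of diets rests on slide 1 and so on its 1 high-Chol array. For the 7 well above background throughout, the median was then 0.23. The median of the 8 was then 0.46 and none was called, against 0.0658% of all genes, with 4 of the 8 at an unadjusted p under 0.05, against 9.1% of all genes.

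**Figure D1:**
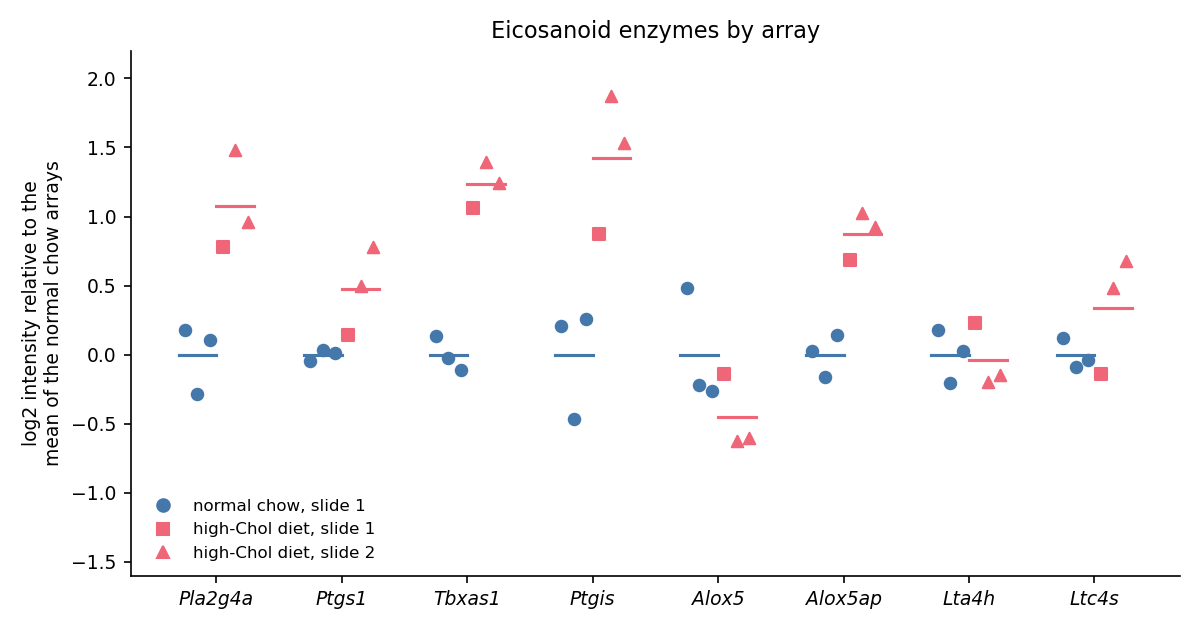
Log2 intensity of the 8 enzyme genes tested on each of the 6 arrays, relative to the mean of the 3 normal chow arrays, with bars at the mean of each diet. All high-Chol points of Pla2g4a, Ptgs1, Tbxas1, Ptgis and Alox5ap lie above all of their normal chow points, and in each of these 5 genes the slide 1 array (square) is the lowest of the 3 high-Chol points.

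Pla2g4a, which supplies the arachidonic acid of both branches, read -2.54, -3.00 and -2.61 with normal chow and -1.94, -1.24 and -1.76 with the high-Chol diet (here and below, slide 1 positions 1, 2 and 3, then slide 1 position 4 and slide 2 positions 2 and 3). The 3 high-Chol values lay above the 3 normal chow values, and the lowest of them was that of slide 1. The log2 difference was 1.07 (standard error 0.23, 2.10-fold, adjusted p = 0.0647 from limma), which did not pass the test. Its second probe, the one printed above, lies 101 bases away on mm7 and read -3.66, -3.82 and -3.75 against -3.04, -2.20 and -2.51, a difference of 1.16 and again without overlap, well above background on 2 of 3 normal chow arrays and all 3 high-Chol arrays. Without the high-Chol array of slide 1, where diet and slide cannot be told apart, Pla2g4a passed at 1.22 (limma adjusted p = 0.0184), within slide 1 it was 0.78, and with a normexp background it was -0.07. That background is another way to subtract the spot's surroundings, and it also adds 50 intensity units to every spot before scaling. The 75th percentile as read was 271 to 374 units on slide 1 and 762 and 799 on slide 2, so 50 units are a larger share of it on slide 1. The part of this offset in the normexp values here and below was not tested.

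Of the cyclooxygenases, Ptgs1, the constitutive form, was measured on all arrays and Ptgs2, the inducible form, on none. Ptgs1 read 1.18, 1.27 and 1.25 on normal chow, close together, and 1.37, 1.73 and 2.01 with Chol. The diets did not overlap, but the high-Chol array of slide 1 was the nearest to normal chow. The difference was 0.47 (standard error 0.19, adjusted p = 0.226 from limma), it was 0.14 within slide 1, and without that array it was 0.64 (limma adjusted p = 0.039). Both Ptgs2 probes, 268 bases apart, were not well above background on any array, so the level of the inducible enzyme was not detectable here in either diet.

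Tbxas1, which encodes thromboxane synthase, rose. It read -0.58, -0.75 and -0.83 with normal chow and 0.34, 0.67 and 0.52 with Chol, or -0.72 ± 0.13 (SD, n = 3) and 0.51 ± 0.17 (SD, n = 3). The gap between the nearest arrays of the diets was larger than the whole spread within either. The log2 difference was 1.23 (standard error 0.16, 2.35-fold, adjusted p = 0.0128 from limma), which ranked 751 of 16730 genes from the most increased downward. A second probe, which begins at the base after the printed one, read -0.68, -0.87 and -0.78 against 0.45, 0.59 and 0.17, a difference of 1.18 (limma adjusted p = 0.0192 with every probe tested by itself). The third probe listed under this name, designed on another transcript 55577 bases away, was not well above background on any array. The study selected Tbxas1 on these same arrays, so its call is not independent evidence. Within slide 1 the difference was 1.06, but the call was lost (limma adjusted p = 0.143), as it was without the normal chow array at position 2 or 3 or either high-Chol array of slide 2 (limma adjusted p = 0.0559 to 0.0814), and with a normexp background the difference was 0.76, also not called. In RNA of a whole liver, more cells of a type and more RNA per cell cannot be told apart.

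Ptgis, which encodes prostacyclin synthase, lay near background. It read -4.14, -4.81 and -4.09 with normal chow, where it was well above background on 1 of 3 arrays, and -3.47, -2.48 and -2.81 with Chol, where it was so on all 3. The diets did not overlap, with the slide 1 array again lowest. The difference was 1.42 (standard error 0.31, adjusted p = 0.0659 from limma), 0.87 within slide 1 and 1.70 without that high-Chol array (limma adjusted p = 0.0101). With the normexp background it was -0.37. Ptges, the inducible synthase of prostaglandin E2, was well above background on 0 of 3 normal chow and 2 of 3 high-Chol arrays and was not tested. Its values of -3.91, -4.47 and -4.83 overlapped those of -4.61, -4.34 and -4.12 on the high-Chol diet.

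**Figure D2:**
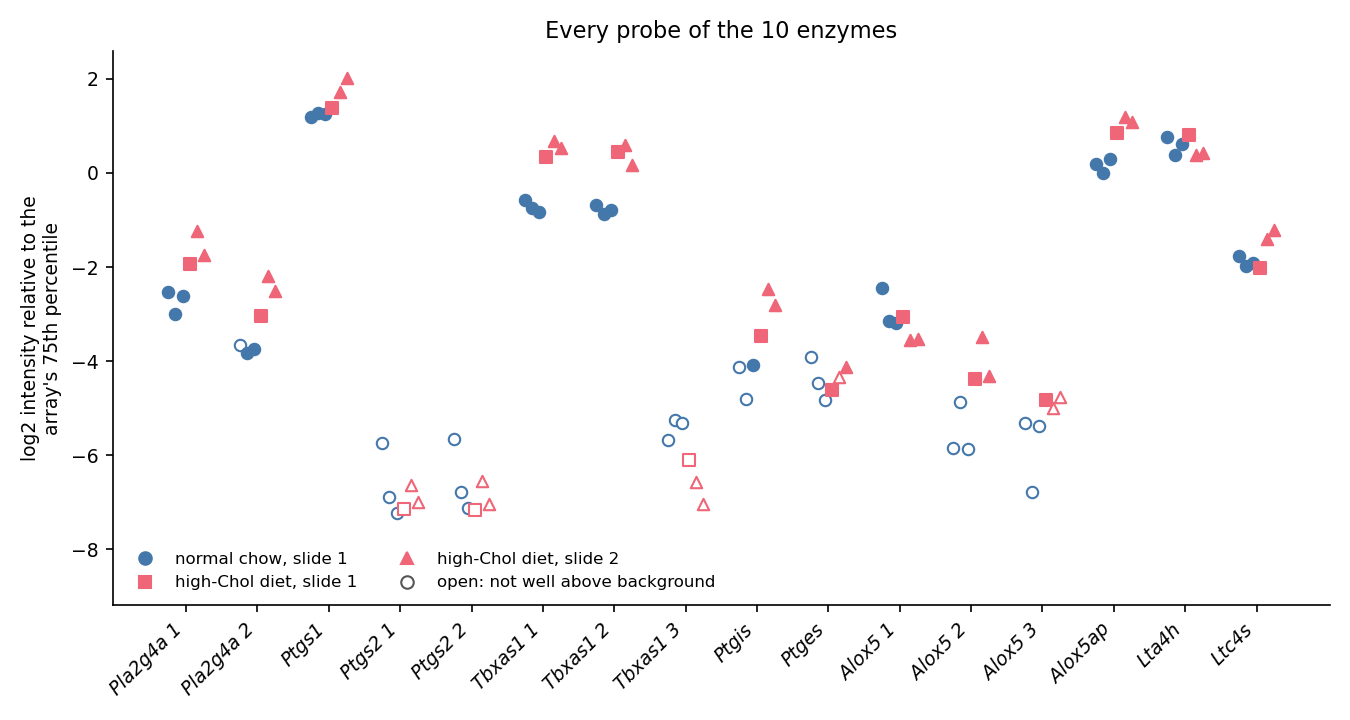
Log2 intensity, relative to the array's 75th percentile, of all 16 probes of the 10 genes on the 6 arrays, with open points where a probe was not well above background. The 2 brighter Tbxas1 probes and the 2 Pla2g4a probes show the same separation of the diets, the Ptgs2 probes are open throughout, and the Alox5 probes go opposite ways. Levels of different probes are not comparable with one another.

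On the leukotriene side, Alox5ap rose and the other genes did not pass. Alox5ap, the membrane protein that presents arachidonic acid to 5-lipoxygenase, read 0.19, 0.00 and 0.31 with normal chow and 0.85, 1.19 and 1.09 with Chol, or 0.16 ± 0.15 (SD, n = 3) and 1.04 ± 0.17 (SD, n = 3). The diets did not overlap on its only probe. The difference was 0.88 (standard error 0.17, 1.84-fold, adjusted p = 0.0427 from limma) and ranked 1576 in the same order. Within slide 1 the difference was 0.69. The call, close to the threshold, was lost with slide as a block and when any array but the high-Chol array of slide 1 was left out (limma adjusted p = 0.0986 to 0.184). It was also lost with median scaling (0.64, limma adjusted p = 0.118) and without the filter on dim probes (limma adjusted p = 0.186). With the normexp background the difference was 0.70, again not called.

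The 3 probes of Alox5, the 5-lipoxygenase itself, did not give 1 direction. The brightest read -2.44, -3.15 and -3.19 with normal chow and -3.07, -3.55 and -3.53 with Chol, which differed by -0.45 (standard error 0.25, adjusted p = 0.334 from limma) with overlapping diets. A second probe shares 20 bases with it. That probe was not well above background on any normal chow array and well above it on all 3 high-Chol arrays, at -5.53 ± 0.58 and -4.07 ± 0.50 (SD, n = 3 each; limma adjusted p = 0.0913 with every probe tested by itself). It was higher with Chol by 1.40-fold once the normal chow values were held at the lowest detected signal of their array. Detection is set spot by spot, so such a fold is not a strict lower bound. The third, 2080 bases from the first, was well above background on 1 high-Chol array alone. Averaging the probes that passed gave 0.51 in place of -0.45, so the array gives no direction for Alox5.

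Of the enzymes downstream of leukotriene A4, neither stood apart between the diets. Lta4h, which makes the neutrophil attractant leukotriene B4, read 0.76, 0.38 and 0.61 with normal chow and 0.81, 0.38 and 0.43 with Chol. Its difference was -0.04 with a 95% interval of -0.48 to 0.40, and it was 0.23 within slide 1. Ltc4s, which adds glutathione to make leukotriene C4, read -1.76, -1.97 and -1.92 with normal chow and -2.02, -1.41 and -1.21 with Chol. The 2 slide 2 arrays were above all normal chow arrays and the slide 1 array was below them, so that the difference of 0.34 (standard error 0.23, limma adjusted p = 0.408, 95% interval -0.21 to 0.89) was -0.14 within slide 1.

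**Figure D3:**
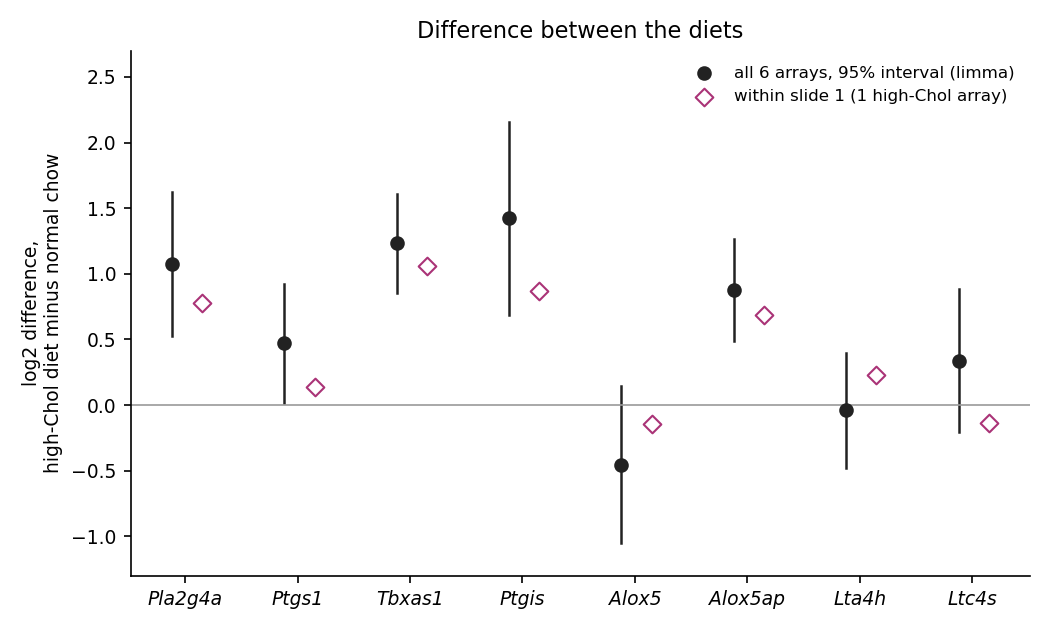
Log2 difference of the 8 genes tested, high-Chol diet minus normal chow, with limma's 95% interval over all 6 arrays (filled circles) and the difference within slide 1, which rests on 1 high-Chol array (open diamonds). The 5 genes whose interval lies above 0 had no overlap between the diets, and all normal chow arrays lie on slide 1. Their differences within slide 1, at 0.14 to 1.06, therefore had to lie above 0 and are no second result. Ltc4s and Lta4h changed sign.

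Genes around this chain were taken from lists of the same pathway. Of 20 other prostanoid and leukotriene synthases and breakdown enzymes, 18 were tested, with a median difference of -0.22. Of the 18, 1 was called higher, against 2.69% of all genes, and 0 lower, against 0.227%. The 1 called was Hpgds, named Ptgds2 on the array, the haematopoietic synthase of prostaglandin D2, which was tested only because it was above background on the high-Chol diet. Of the 15 genes of the list well above background on all 6 arrays, 0 were called by limma, and by an unadjusted p below 0.05 there was 1 higher and 3 were lower, where 8.52% and 9.96% of all genes of that kind were. Hpgds was not well above background on any normal chow array (-5.19, -6.91 and -5.47) and above it on all 3 high-Chol arrays (-3.49, -2.65 and -2.85). With the normal chow values held at the lowest detected signal of their array it was 2.94-fold higher, which is not a strict lower bound. Its call (limma adjusted p = 0.0265) was lost with slide as a block, where the difference was 2.37, and with the normexp background its difference was -0.27. Mgst2, a microsomal glutathione transferase that can also make leukotriene C4, was likewise dim on all normal chow arrays. It was 1.60-fold higher with its normal chow values held in the same way (limma adjusted p = 0.125), but at -0.66 with the normexp background. Ptgr2, named Zadh1 on the array, a prostaglandin reductase, differed by -0.62 (limma adjusted p = 0.138), and a second probe of it by 0.12. Ptges2, Ptges3, Ptgds and Hpgd, further synthases and the main prostaglandin breakdown enzyme, differed by -0.46, -0.23, 0.41 and -0.29, none of which passed.

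Of 19 other phospholipases A2 and their regulators, 12 were tested, with a median of -0.03. Of the 12, 1 was called higher, against 2.69% of all genes, and 0 lower, against 0.227%. The 1 called was Pla2g7, the lipoprotein-associated enzyme that breaks down platelet-activating factor. It read -1.09, -1.36 and -1.39 with normal chow and -0.41, 0.01 and 0.30 with Chol, which differed by 1.25 (standard error 0.22) with a limma adjusted p of 0.0336, or 0.299 once slide was a block, and by 0.52 with the normexp background. Pla2g7 too was selected by the study on these arrays. Anxa1, known as an inhibitor of phospholipase A2, differed by 0.84 without overlap (limma adjusted p = 0.123). Of 6 other arachidonate lipoxygenases 3 were tested and 0 were called in either direction by limma, with a median of 0.60 that was -0.21 within slide 1. At an unadjusted p under 0.05, 1 of the 3 was higher, against 12.3% of all genes, and 0 were lower, against 8.83%. The 1 higher, Alox12, passed the filter through the high-Chol diet alone.

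Of 13 receptors for these mediators 7 were tested, and limma called 0 of them in either direction, although 2 were higher, and 0 lower, by an unadjusted p below 0.05, where 12.3% and 8.83% of all genes were. Of these 2, Cysltr1 passed the filter through the high-Chol diet alone, and 1 of the 6 receptors well above background on all 6 arrays was higher at that p. Their median was 0.59 and became -0.10 within slide 1. Tbxa2r, the thromboxane receptor, read -0.80, -1.45 and -1.54 with normal chow and -1.37, -2.10 and -1.59 with Chol, which overlapped. Ptgir, the prostacyclin receptor, was at -2.88 to -3.01 on normal chow and at -1.08 and -1.05 on slide 2, but at -3.13 on the high-Chol array of slide 1, so that its difference of 1.22 was -0.16 within slide 1. Ptger2, a prostaglandin E2 receptor, was without overlap at 0.93 (limma adjusted p = 0.091) and 0.46 within slide 1, and Cysltr1, which binds the cysteinyl leukotrienes, at 0.60 (limma adjusted p = 0.229) and 0.07. With the normexp background Ptger2 was at -0.10 and Cysltr1 at -0.71.

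**Figure D4:**
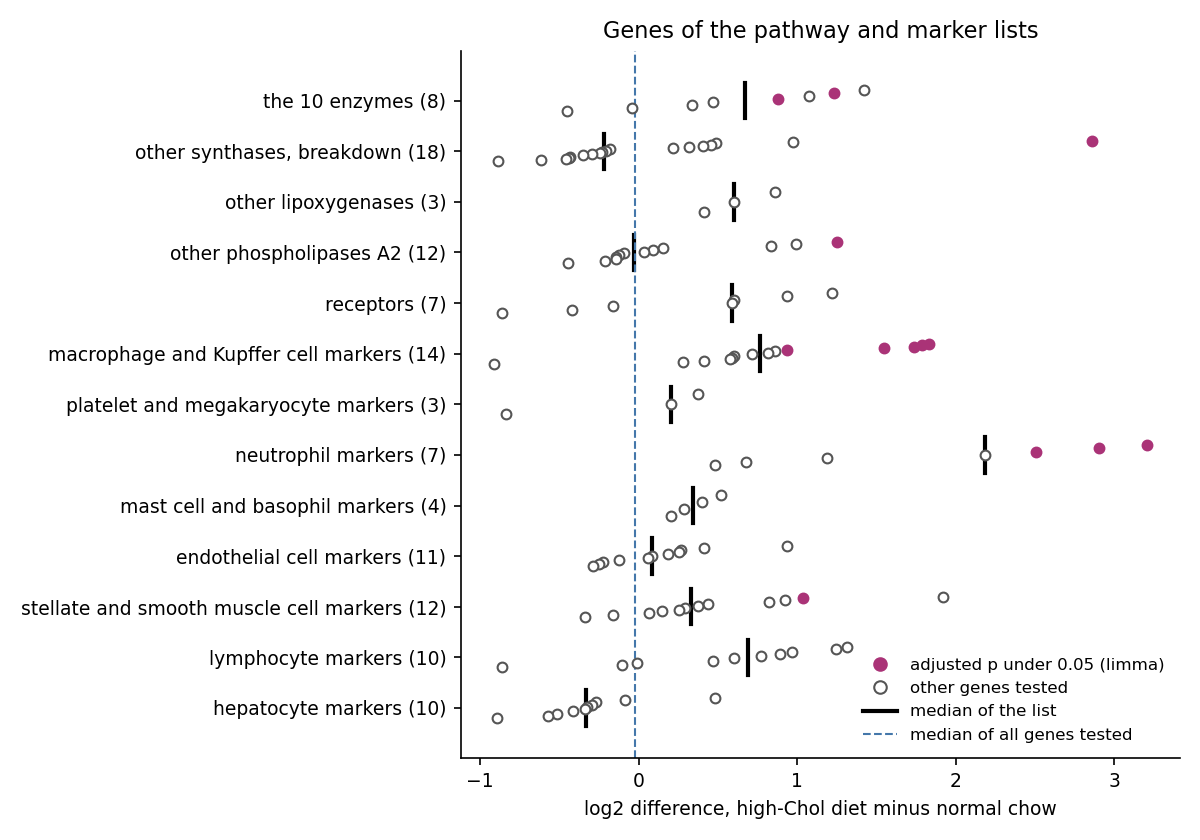
Log2 difference, high-Chol diet minus normal chow, of each gene tested in the enzyme group and in the pathway and marker lists (number tested in brackets), with filled points for genes at a limma adjusted p under 0.05, black bars at the median of a list and a dashed line at the median of all genes tested. Macrophage and neutrophil markers hold most of the filled points, and the platelet, mast cell, endothelial, lymphocyte and hepatocyte lists hold none.

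Markers of cell types that a whole liver can hold were read on the same arrays. Of 15 macrophage and Kupffer cell markers 14 were tested, 5 were called higher, against 2.69% of all genes, and 0 lower, with a median of 0.77 that was 0.68 within slide 1. The mean of the list was 1.79 to 1.99 on the normal chow arrays and 2.66 to 2.77 on the high-Chol arrays. Cd68, a lysosomal macrophage protein, read 0.12, -0.16 and 0.00 with normal chow and 1.65, 1.88 and 1.65 with Chol, a difference of 1.74 (limma adjusted p = 0.00601). Lyz2 (Lyzs on the array), a lysozyme, differed by 1.78 and Marco, a scavenger receptor, by 1.83, both called. With slide as a block none of the list was called, although 11 of the 14 were at an unadjusted p under 0.05, against 9.1% of all genes. Cd68, Lyz2 and Marco then differed by 1.66, 1.32 and 1.99 (limma adjusted p = 0.0831, 0.106 and 0.251). Clec4f, which marks resident Kupffer cells, differed by 0.41 (limma adjusted p = 0.24) and Cd163 by -0.91 (limma adjusted p = 0.154). The part of these cells in the results of Tbxas1, Alox5ap and the other enzyme genes was not tested.

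Of 12 neutrophil markers 7 were tested, 3 were called higher, against 2.69% of all genes, and 0 lower, with a median of 2.18 and of 0.63 within slide 1, and 3 of the others were not well above background on any array. The mean of the list was -3.04 to -2.85 on normal chow and -1.62 to -0.49 on the high-Chol diet. S100a8 and S100a9, which encode the calprotectin subunits, differed by 3.21 and 2.90 (limma adjusted p = 0.00553 and 0.0039). Retnlg, dim on all normal chow arrays, was 3.76-fold higher with those values held at the lowest detected signal of their array (limma adjusted p = 0.0161). Retnlg was tested only because it was above background on the high-Chol diet, and of the 4 markers well above background on all 6 arrays 2 were called, with a median of 1.79. With slide as a block none of the list was called, although S100a8 and S100a9 differed by 2.85 and 2.83 (limma adjusted p = 0.0831 and 0.0768), and the median of those 4 markers was 1.60. With the normexp background S100a8, S100a9 and Retnlg differed by 1.07, 2.62 and -0.23. Their part in the enzyme results was not tested either.

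Of 10 platelet markers, of interest for thromboxane synthase, 8 were matched and 3 tested, with 0 called by limma. Their median was 0.21, or -0.33 within slide 1. At an unadjusted p under 0.05, 1 of the 3 was lower, against 8.83% of all genes, and 0 were higher, against 12.3%. Of the 5 not tested, Gp9 was well above background on 3 arrays, Itga2b on 2 and Gp5 on 1, and Gp1ba and Gp6 on none. Gp1bb read -2.60, -2.97 and -2.94 with normal chow and -3.16, -2.24 and -2.49 with Chol, Treml1 differed by 0.38, and Itgb3, which other cells also express, differed by -0.83 on 1 probe and -0.21 on another. The mean of the 3 was -0.85 to -0.39 and -1.14 to -0.39.

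Of 9 mast cell and basophil markers 4 were tested and limma called 0, none at an unadjusted p under 0.05, with a median of 0.34, and Cpa3, a mast cell protease, was not well above background on any array. Of 11 endothelial markers, cells in which Ptgis is known to act, all 11 were tested with 0 called by limma and a median of 0.08. At an unadjusted p under 0.05, 1 of the 11 was higher, against 12.3% of all genes, and 0 were lower, against 8.83%. Cdh5 was without overlap at 0.94 (limma adjusted p = 0.072). All 12 stellate and smooth muscle cell markers were tested, with a median of 0.33. Of the 12, 1 was called higher, against 2.69% of all genes, and 0 lower, against 0.227%. It was Col1a1, a collagen chain of activated stellate cells, at 1.04 (limma adjusted p = 0.0257) on its brighter probe and 0.39 on the other. That call was lost with slide as a block (1.16, limma adjusted p = 0.148) and with the mean of its probes (0.71, limma adjusted p = 0.0926). Col3a1, a further collagen chain, and Cnn1 of smooth muscle were without overlap at 0.82 and 0.93, the latter at -0.64 with the normexp background. Lymphocyte markers, 10 of 11 tested, had 0 called by limma, 4 of the 10 higher at an unadjusted p under 0.05, against 12.3% of all genes (1 of the 5 well above background on all 6 arrays), and a median of 0.69 that was 0.17 within slide 1, with Klrb1c, Cd3d and Cd3g without overlap at 1.31, 1.25 and 0.89, and at -0.32, -0.26 and -0.45 with the normexp background. Hepatocyte markers had 0 called by limma, an unadjusted p below 0.05 in 1 of 10 that was higher and 3 of 10 that were lower, against 12.3% and 8.83% of all genes, and a median of -0.33, with Serpina3k at -0.90 on 1 probe and 0.00 on another.

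Genes whose values followed those of the 2 called genes most closely were found among the 14044 genes well above background and measured on all 6 arrays, by the root mean square distance between the 6 log2 values after each gene's own mean was taken off. Nearest to Tbxas1 were Pfkfb4 (distance 0.045), Plcg2 (0.045) and Ms4a11 (0.062), which differed between the diets by 1.17, 1.27 and 1.23. Plcg2, for example, read 0.01, -0.28 and -0.26 with normal chow and 0.89, 1.27 and 1.12 with Chol. Nearest to Alox5ap were Ssbp4 (0.042), 1700008P20Rik (0.047) and Waspip (0.052), with differences of 0.92, 0.87 and 0.82. With 6 points and so many genes, such near matches are a description of these arrays alone.

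**Figure D5:**
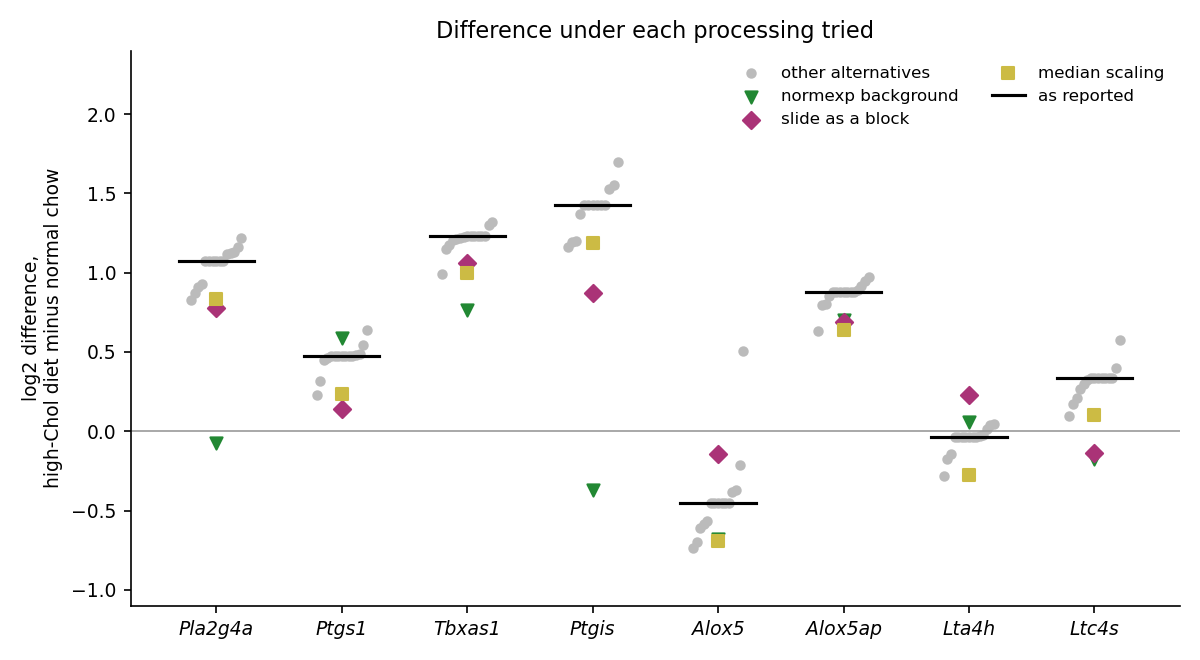
Log2 difference of each of the 8 genes, high-Chol diet minus normal chow, as reported (black bars) and under every other processing tried (points). Tbxas1 stays between 0.76 and 1.32 and Alox5ap between 0.63 and 0.97, whereas Pla2g4a and Ptgis fall below 0 with the normexp background, and Lta4h, Ltc4s and Alox5 lie on both sides of 0.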

How the data were processed

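Liver RNA of 3 experiments per diet was measured on one-colour arrays. The authors deposited the spot intensity of each array, background-subtracted by Agilent Feature Extraction (version 9.5 for slide 1 and 9.1 for slide 2) and not scaled between arrays. The authors deposited as well log2 values for 23458 probes, with the 3 arrays of a diet merged into 1 column, normalized and filtered in Gene Spring GX with settings not given in the sources used here. Its column medians were -0.00185 (normal chow) and -0.273 (high-Chol diet), and its differences followed those after median scaling with an offset of -0.00627, so that its centring stays unstated but resembles median scaling.

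Here the log2 intensity was taken relative to each array's 75th percentile over non-control spots, without spots marked as outliers (75 to 196 per array). Spots of a probe were averaged, and a gene was represented by its brightest probe among those that stood well above background in every experiment of 1 diet or of both. The difference between diets was fitted in R 4.3.3 by lmFit and eBayes of limma 3.58.1, with Benjamini-Hochberg adjustment over 16730 genes and a threshold of 0.05. Gene lists were described by counts and medians. Alternatives were a normexp background (offset 50), median scaling, quantile normalization, no filter, a filter for all 6 arrays, probes tested singly or averaged per gene, slide as a block, the omission of each array, a trended and robust prior, the methods' t-test and the deposited values. Named list genes were those called, or above 1.5-fold without overlap, up to 5 per pathway list and 3 per marker list, and the receptors, synthases and markers named beside them were picked with their values in view. The genes and lists were chosen with earlier results of these data known. Names come from the array design. The accessions of 15 of the 16 enzyme probes were in the gene table. Pf4, Ppbp, Ly6g, Tpsb2, Serpina1a and Hpx were not analysed here.

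In data simulated from the 16438 genes with 6 values, limma called 41 of 103 genes changed 2-fold and 74 of 97 changed 4-fold, with 3 false calls. The simulated data held no slide effect, so the 3 false calls do not cover calls that come from slide. The number of arrays limits the precision. Python 3.11.15 with pandas 2.3.3, numpy 2.4.6 and matplotlib 3.10.9 read the promoters and drew the plots.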

Additional observations from a re-analysis of the deposited data

How the results depend on the processing

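No paired analysis was possible because the labels number the experiments of a diet together, without saying which array is which, so that no chow array belongs with a given high-Chol array. The number of the 10 genes called higher, 2 as reported, was 0 with the normexp background, without the filter on dim probes, with slide as a block and with the methods' t-test after adjustment, 1 with median scaling, 4 with that test unadjusted, and 0 to 5 when 1 array was left out. The 5 came without the high-Chol array of slide 1, where diet and slide cannot be told apart. Tbxas1 was called in 9 of 17 tested alternatives and Alox5ap in 7 of 17. The median of the enzyme genes, 0.67, was 0.44 with median scaling, where the median of all genes moved from -0.02 to -0.26, 0.46 with slide as a block, 0.23 in the deposited values, which lack Ptgis and have a median of -0.28 over all genes, 0.47 with the filter for all 6 arrays, which also drops Ptgis, and -0.008 with the normexp background. That background also gave opposite signs to Pla2g4a (-0.073), Ptgis (-0.37), Ltc4s (-0.17) and Lta4h (0.058), and the cause was not tested. Opposite signs were found as well for Ltc4s (-0.14) and Lta4h (0.23) with slide as a block, for Alox5 with the mean of its probes (0.51), and for Lta4h with an array left out (-0.172 to 0.048). Over all genes, 450 were called higher and 38 lower, against 329 and 73 with median scaling, 0 and 0 with the normexp background, 26 and 0 without the filter, 11 and 0 with slide as a block, 4 and 1 with the adjusted methods' t-test, 1402 and 1389 unadjusted, and 42 to 2316 higher and 0 to 761 lower with an array left out. In the deposited values, the authors' differences were 0.99 and 0.94 for the 2 bright Tbxas1 probes, 0.63 for Alox5ap and 0.83 for Pla2g4a. Ptgis was well above background on 1 of 3 normal chow arrays, and Ptges and Ptgs2 did not pass the filter.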
